A study of Mus musculus with 8 samples.

Results

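The genes described here write, copy, read or erase cytosine methylation in DNA: the methyltransferases *Dnmt1*, *Dnmt3a* and *Dnmt3b*, the maintenance cofactor *Uhrf1*, the dioxygenases *Tet1*, *Tet2* and *Tet3*, and the methyl-CpG reader *Mbd2*. They were chosen by gene name from a table of estimated read counts, and 8 of 8 names were found among 11911 listed genes. All 8 also passed the filter on low counts, as did 11317 genes in total. The comparison asks whether RNA of this machinery differed between iT_reg_ cultures of 2 genotypes, with and without floxed *Tdrd3*.

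RNA-seq was performed on naïve splenic CD4+ T cells of mice, polarized in culture toward T_regs_ for 36 hours with TGF-β and with antibodies to CD3, CD28, IL-4 and IFNγ. Controls, labelled WT, were *Foxp3 YFP-Cre* mice, and the compared animals, labelled KO, were *Tdrd3 fl/fl/Foxp3 YFP-Cre* mice, so both genotypes carry the Cre allele. There were 4 libraries per genotype, and listed genes had between 13258239 and 16001676 counts per library. Cre is driven by *Foxp3*, and a cell can therefore lose *Tdrd3* only after it has begun to transcribe *Foxp3*. A sort for YFP+ cells is not described for this experiment, and the age of the mice used for sequencing is not given in the sources used here. Bulk RNA cannot tell fewer cells of a kind from less RNA per cell.

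The targeted gene was examined first. *Tdrd3* had 18.8, 15.1, 9.95 and 17.7 CPM (counts scaled to the library total after TMM adjustment) in the libraries labelled WT replicates 1 to 4 and 13.7, 10.7, 12.9 and 11.1 CPM in KO replicates 1 to 4. The library labelled WT replicate 3 thus lay below every KO library and goes against its label. The log2 fold change of *Tdrd3* was −0.35, with an edgeR unadjusted P of 0.037 and adjusted p of 0.496. Without the library labelled WT replicate 3 it was −0.51, with an unadjusted P of 0.000484 and adjusted p of 0.115. Over 16 alternatives the adjusted p ranged from 0.115 to 1.0, and the unadjusted P was below 0.05 in 10. The library labelled WT replicate 3 also held 11.3 CPM of *Cd8a*, a marker of CD8 T cells. The other 7 libraries had at most 1.37 CPM. KO replicates 1 and 4 stood apart in another way: on the first principal component of all tested genes they scored 15.0 and 15.4. The other libraries scored between −9.23 and 2.28. The library labelled WT replicate 3 scored −9.23, beside −9.07, −8.97 and −1.26 for WT replicates 1, 2 and 4. KO replicates 2 and 3 scored −4.14 and 2.28. The *Il2ra* level of the library labelled WT replicate 3, given below, was the highest of the 8 libraries. In what follows, WT and KO replicates are named as labelled.

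Methylation of CpG sites is copied to new DNA strands after replication by DNMT1, which UHRF1 brings to hemimethylated sites, whereas DNMT3A and DNMT3B methylate unmodified DNA. TET enzymes oxidize methylcytosine, which leads to its loss. In T_regs_, an enhancer in the first intron of *Foxp3* loses methylation as the lineage becomes stable, and TET2, TET3 and MBD2 are known to take part in keeping it demethylated.

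Genes of the methylation machinery were not called as different between the genotypes at an adjusted p below 0.05. By edgeR's quasi-likelihood test, 0 of the 8 genes had an adjusted p below 0.05, where 0.265% of all tested genes were called. DESeq2 and limma voom also called 0. At an unadjusted P below 0.05, 1 gene of 8, *Mbd2*, was counted by edgeR, beside 9.3% of all tested genes. Groups did not overlap in 0 of the 8 genes, beside 4.89% of all tested genes. The mean was lower in KO iT_regs_ for all 8, with a median log2 fold change of −0.070, whereas the median over all tested genes was 0.0013 and 49.4% of them had a negative value. That shared sign did not hold in every setting, since without KO replicates 1 and 4 *Dnmt1*, *Uhrf1*, *Dnmt3a* and *Dnmt3b* had positive values of 0.0092, 0.018, 0.019 and 0.10. A p that misses the threshold does not show that the genotypes are alike, so the 95% interval is given for each gene.

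**Figure D1:**
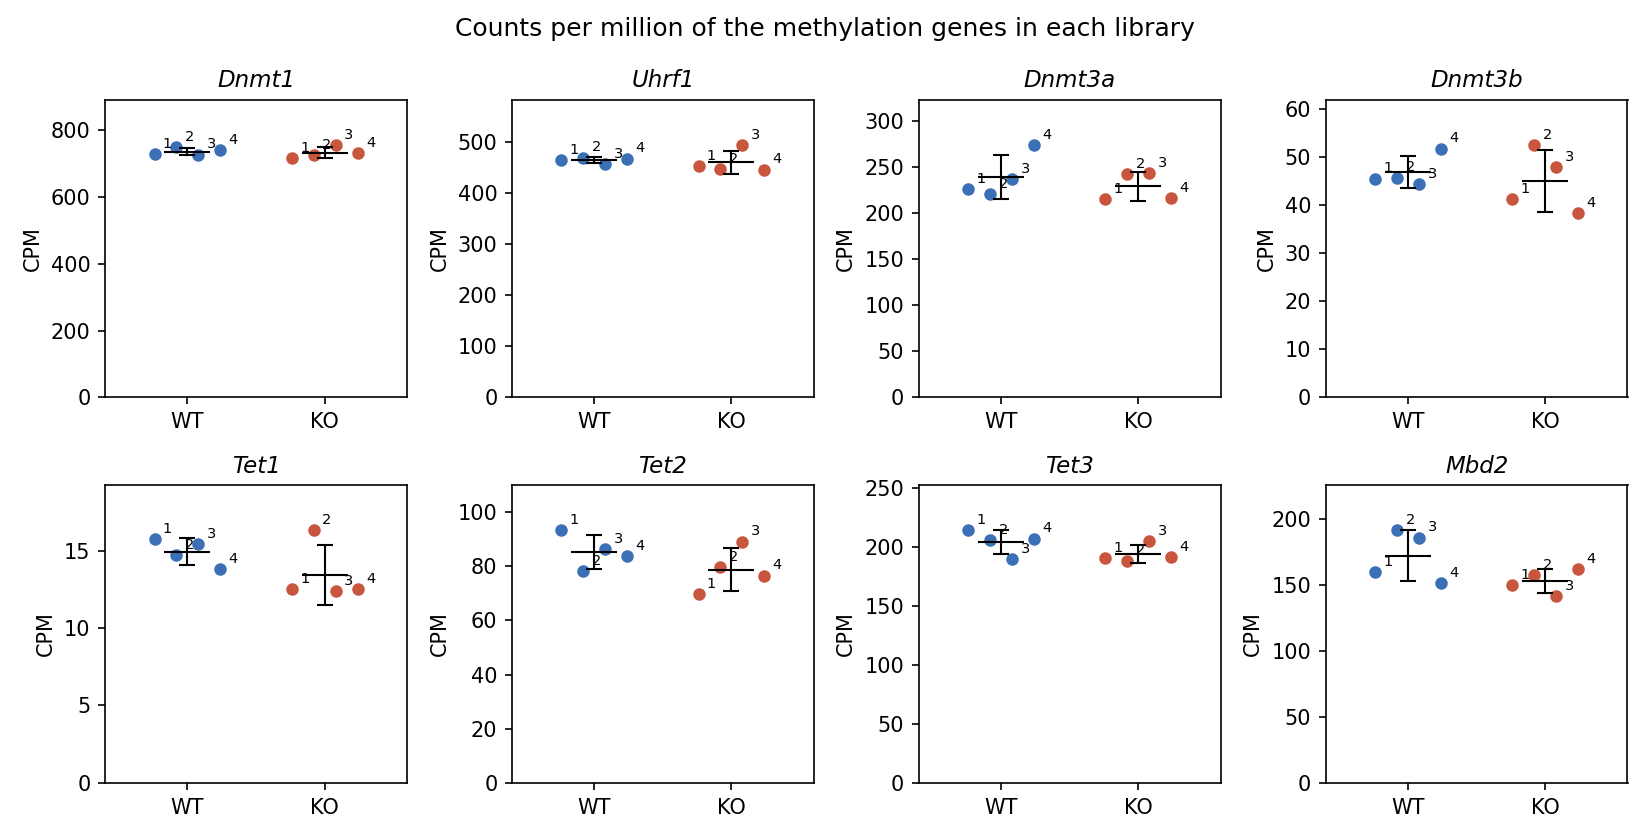
Points show CPM on a linear axis from 0 for each library, with the replicate number beside each point, and black bars give the mean and SD of 4 libraries per genotype (WT blue, KO red). The genotypes overlap in each of the 8 genes.

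*Dnmt1* (ENSMUSG00000004099) copies methylation patterns at replication. Its locus in GRCm39, the build of all gene positions given here, is chromosome 9, 20817945 to 20871184, minus strand. Its RNA was at 728, 748, 727 and 740 CPM in WT replicates 1 to 4 and 716, 726, 755 and 731 CPM in KO replicates 1 to 4. The highest and the lowest value both belonged to KO libraries. The means were 736 ± 10.2 and 732 ± 16.7 (SD, n = 4 each), a log2 fold change of −0.0069 with a 95% interval from −0.079 to 0.065. Expressed as a percentage, that interval runs from −5.32% to 4.62%. The edgeR adjusted p was 0.969.

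*Uhrf1* (ENSMUSG00000001228), whose protein recognizes hemimethylated CpG sites, is on the plus strand of chromosome 17 (56610275 to 56630489). Its RNA reached 465, 469, 457 and 467 CPM in WT replicates 1 to 4 and 452, 447, 494 and 446 CPM in KO replicates 1 to 4. Control libraries were close together, and 3 KO libraries lay below all of them while KO replicate 3 lay above. Mean values were 464 ± 5.55 and 460 ± 23.0 (SD, n = 4 each), with a log2 fold change of −0.015 (95% interval −0.097 to 0.068) and an edgeR adjusted p of 0.949. Without KO replicate 3 the log2 fold change was −0.050. In the fit of all 8 libraries, for both maintenance genes the interval excluded a change of 1.2-fold in either direction. This was not particular to them: of the 8 genes, the interval held a 1.2-fold fall in 2, *Tet1* and *Mbd2*, and a 1.2-fold rise in 0.

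*Dnmt3a* (ENSMUSG00000020661), a de novo methyltransferase, is on the plus strand of chromosome 12 (3856007 to 3964443). In WT replicates 1 to 4 it had 226, 221, 237 and 274 CPM, and in KO replicates 1 to 4 it had 215, 242, 244 and 216 CPM. WT replicate 4 was the highest library, and without it the log2 fold change turned from −0.063 (95% interval −0.19 to 0.064) to 0.0066. The means of 240 ± 24.1 and 229 ± 15.6 (SD, n = 4 each) were closer than the spread among controls, and the edgeR adjusted p was 0.845.

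*Dnmt3b* (ENSMUSG00000027478), the other de novo enzyme, is on the plus strand of chromosome 2 (153490861 to 153529650). It was measured at 45.5, 45.7, 44.3 and 51.7 CPM in WT replicates 1 to 4 and at 41.2, 52.5, 47.8 and 38.2 CPM in KO replicates 1 to 4. KO libraries surrounded the control libraries, with KO replicates 1 and 4 lowest and KO replicate 2 highest. The means were 46.8 ± 3.33 and 44.9 ± 6.43 (SD, n = 4 each). The log2 fold change was −0.057 (95% interval −0.24 to 0.12, edgeR adjusted p = 0.904) and turned to 0.013 without KO replicate 4. Exons of *Dnmt3a* and *Dnmt3b* overlap the opposite-strand genes *Dnmt3aos* and *Dnmt3bos*, and whether counting used strand is not given in the sources used here, so reads of these pairs cannot be told apart.

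TET enzymes oxidize methylcytosine, and the gene with the fewest counts among them was *Tet1* (ENSMUSG00000047146; chromosome 10, 62640349 to 62744775, minus strand). It had 15.7, 14.7, 15.4 and 13.8 CPM in WT replicates 1 to 4 and 12.5, 16.3, 12.4 and 12.5 CPM in KO replicates 1 to 4, from 165 to 260 counts per library. KO replicates 1, 3 and 4 lay below every control library and KO replicate 2 lay above every one. The means were 14.9 ± 0.860 and 13.4 ± 1.92 (SD, n = 4 each). The log2 fold change was −0.15 (95% interval −0.38 to 0.084), which in percent runs from −23.3% to 5.98%, and the edgeR adjusted p was 0.784. Without KO replicate 2 the log2 fold change was −0.26 with an edgeR adjusted p of 0.367, the lowest over the alternatives tried, where it ranged up to 1.0. Without KO replicates 1 and 4 it was −0.050.

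*Tet2* (ENSMUSG00000040943; chromosome 3, 133169436 to 133250900, minus strand) had 93.2, 78.3, 86.3 and 83.6 CPM in WT replicates 1 to 4 and 69.7, 79.6, 89.1 and 76.5 CPM in KO replicates 1 to 4. KO replicate 3 exceeded all but WT replicate 1, and KO replicate 1 was the lowest library. The means were 85.3 ± 6.20 and 78.7 ± 8.04 (SD, n = 4 each), a log2 fold change of −0.12 (95% interval −0.26 to 0.026, edgeR adjusted p = 0.665). Without KO replicates 1 and 4 the log2 fold change was −0.020, and without KO replicate 3 it was −0.18, with an unadjusted P of 0.0149. The adjusted p of that setting, 0.370, was the lowest of the 16 alternatives, which reached 1.0, and the unadjusted P was below 0.05 in 3 of them. An exon of *Gm42567* on the opposite strand overlaps this gene.

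*Tet3* (ENSMUSG00000034832; chromosome 6, 83339355 to 83436066, minus strand) had 214, 206, 190.0 and 207 CPM in WT replicates 1 to 4 and 191, 188, 205 and 191 CPM in KO replicates 1 to 4. The library labelled WT replicate 3 lay among the KO values, and KO replicate 3 was the highest KO library, just below the other controls. The means were 204 ± 10.2 and 194 ± 7.55 (SD, n = 4 each), with a log2 fold change of −0.076 (95% interval −0.17 to 0.018, edgeR adjusted p = 0.680). Without the library labelled WT replicate 3 the log2 fold change was −0.11, with an edgeR adjusted p of 0.390, the lowest over the alternatives, which reached 1.0. The exons overlap those of *Bola3* on the opposite strand.

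*Mbd2* (ENSMUSG00000024513), whose protein binds methylated CpG sites and belongs to a NuRD corepressor complex, is on the plus strand of chromosome 18 (70701260 to 70762203). It had 160, 191, 186 and 151 CPM in WT replicates 1 to 4 and 150, 157, 142 and 162 CPM in KO replicates 1 to 4. WT replicate 2 and the library labelled WT replicate 3 were the highest, WT replicates 1 and 4 lay among the KO values, and all 4 KO libraries were below the control mean. The means were 172 ± 19.4 and 153 ± 8.89 (SD, n = 4 each), and the two-sided exact permutation p was 0.171. The log2 fold change was −0.17 (95% interval −0.31 to −0.036), and edgeR gave an unadjusted P of 0.0159 (adjusted p = 0.380). Over the alternatives the adjusted p ranged from 0.0897 to 1.0. Leaving out WT replicate 2, the library labelled WT replicate 3 or KO replicate 3 raised the unadjusted P of edgeR to 0.0854, 0.0620 and 0.0661, and without KO replicates 1 and 4 the log2 fold change was −0.20. An exon of *Gm31671* on the opposite strand overlaps this gene.

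**Figure D2:**
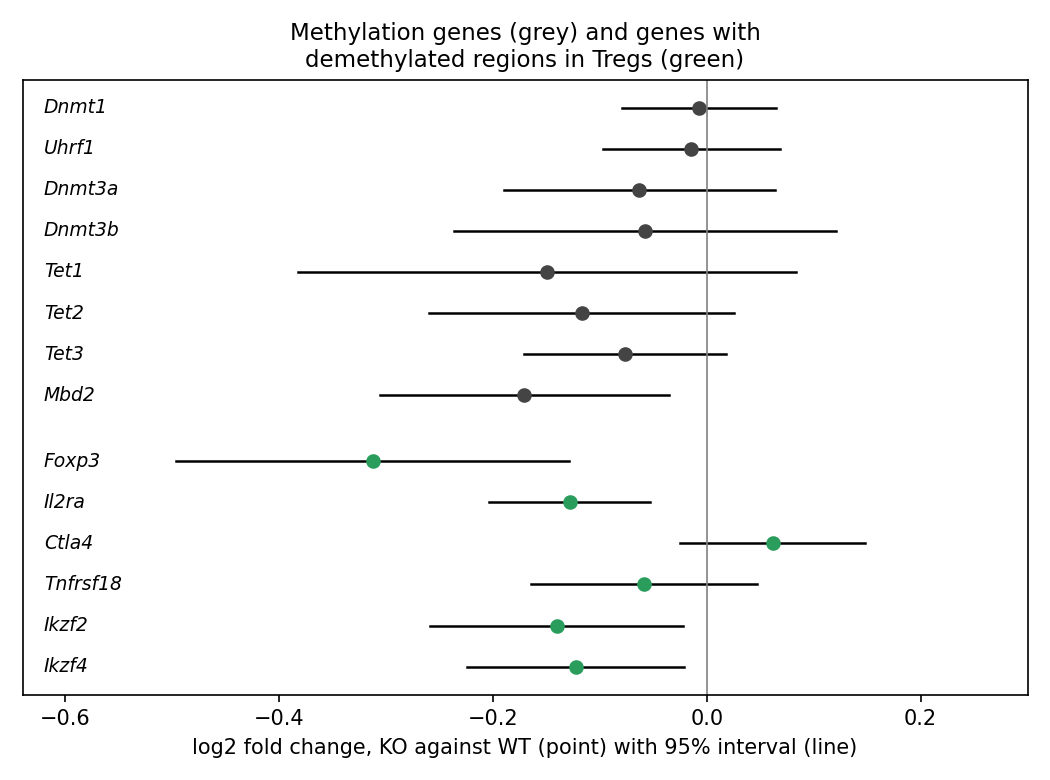
Points give the log2 fold change of KO against WT and lines its 95% interval, for the 8 methylation genes (grey) and for 6 genes with regions known to be demethylated in T_regs_ (green). The interval of *Mbd2* alone among the grey genes excludes 0, and *Foxp3* has the lowest value, −0.31.

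Levels of different genes were compared per length, as RPKM (CPM per kilobase of the merged GENCODE exons). *Uhrf1* and *Dnmt1* were highest, at means over the 8 libraries of 87.6 and 86.3 RPKM, and their ranges overlapped. *Mbd2* followed at 18.4 RPKM, then *Dnmt3a* at 13.8 and *Tet3* at 11.9 RPKM. Each of these neighbours in level overlapped the next in range, except that *Dnmt1* lay 4.69-fold above *Mbd2* without overlap by these lengths. *Dnmt3b* at 7.40, *Tet2* at 4.62 and *Tet1* at 0.917 RPKM formed the lower end, each separate from its neighbours. The order depends in part on the length used: with the canonical transcript alone, *Tet3* at 33.5 RPKM passed *Dnmt3a* at 24.1, and *Mbd2* reached 83.1 RPKM beside 124 for *Dnmt1*, a ratio of 1.49.

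Proportions within each family were compared across libraries. *Tet3* made up between 66.0% and 70.7% of summed TET RPKM in the 8 libraries, and *Tet1* between 4.43% and 6.27%. *Dnmt1* accounted for 78.1% to 82.0% of the summed RPKM of the 3 methyltransferases. Mean shares of *Tet3* were 67.9% ± 1.67 in WT and 68.7% ± 1.58 in KO libraries (SD, n = 4 each). That difference was smaller than the spread within a genotype. These shares depend on the length used: with the canonical transcript, *Tet1* made up 1.99% to 2.84% of the TET sum and *Tet3* on average 77.8% in WT and 78.4% in KO libraries.

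Covariation over the 8 libraries was examined for all 28 pairs of these genes on log2 CPM, and 0 pairs had a Benjamini-Hochberg adjusted permutation p below 0.05. The highest Pearson r, for *Dnmt1* and *Uhrf1*, was 0.827 (exact permutation p = 0.011, adjusted 0.213), with a Spearman rho of 0.738 (exact permutation p = 0.0458, adjusted 0.641). Without WT replicate 2 and KO replicate 3, the libraries farthest from the median of *Dnmt1*, r was 0.473. Leaving out the extremes of a gene narrows its range, which can lower r by itself, so no conclusion is drawn from that fall. *Dnmt3a* and *Dnmt3b* had an r of 0.802 (exact permutation p = 0.0152, adjusted 0.213) and a rho of 0.810 (exact permutation p = 0.0218, adjusted 0.610). That r was 0.764 without WT replicate 4 and KO replicate 1. In all, 3 pairs had an unadjusted p of r below 0.05. The third was *Uhrf1* and *Tet3*, with an r of 0.689 (exact permutation p = 0.0484, adjusted 0.452). Their rho was 0.595 (exact permutation p = 0.132, adjusted 0.739), and r was 0.884 without KO replicates 3 and 4. Subtracting each genotype's mean left r at 0.823 for the first pair, 0.789 for the second and 0.724 for the third.

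Among all tested genes, those closest to each methylation gene over the 8 libraries are given as a description. *Numa1*, *Akap17a* and *Kdm5c* lay closest to *Dnmt1*, with r from 0.935 to 0.948, and *Ppm1b*, *Sfxn5* and *Lgals4* to *Uhrf1*, with r from 0.949 to 0.957. *Dusp2*, *Sh2b2* and *Slc25a53* followed *Dnmt3a* (r from 0.947 to 0.970), and *Sgsh*, *Mecr* and *Zbed4* followed *Dnmt3b* (r from 0.926 to 0.939). For the erasers, the closest genes were *Serinc3*, *Rgs1* and *Traf5* for *Tet1*, *Elmo3*, *Eef2k* and *Fam219b* for *Tet2*, and *Tom1l1*, *Zzef1* and *Utp14b* for *Tet3*. Their r values lay between 0.945 and 0.993. *Rpa2*, *Pkp3* and *Tmod3* were closest to *Mbd2*, with r from 0.932 to 0.960. So many genes over 8 libraries give high r values readily.

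RefSeq promoter windows of 300 bases (table build GRCm38.p6), of which 250 lie before the start, were available for 7 of the 8 genes, 12 windows in all. Their CpG counts ranged widely: 57 in the window of *Tet2*, up to 47 in those of *Dnmt3a* and as few as 2 in 1 window of *Dnmt1*, where the median of all 32851 windows was 7. A search of both strands for 10 short motifs was made with the expression of these genes known. They were TTTCCCGC, TTTCGCGC, TTTGCCGC and TTTGGCGC, which spell an E2F consensus, the related TTTGGCGG and TTTCCCGG, a GC box written CCGCCC, the CCAAT box, a TATA element written TATAAA and an E-box written CACGTG. The related spellings can overlap the consensus and the GC box. TTTCGCGC was picked with the r values known, and is shown because *Dnmt1* and *Uhrf1*, the pair with the highest r, hold it. They were the only matched genes to do so, in 1 window each, while 0.323% of all windows hold it. Both windows had 33 CpG sites, beside the median of 7. Any of the 4 spellings of the consensus was in 2 of the 12 windows and in 2.26% of all windows. CCGCCC was in 10 of the 12 windows and 35.7% of all windows, and CCAAT in 5 of the 12 and 37.4% of all. TTTGGCGC, of the same consensus, was in 1 window of *Dnmt1* and in 0 of *Uhrf1* (0.514% of all windows), CACGTG in 1 of *Dnmt3a* (7.15% of all), and the other 5 in 0 of the 12. The 30-base stretches below match GRCm39 exactly, at chr17:56611117-56611146 on the plus strand for *Uhrf1* and at chr9:20864120-20864149 on the minus strand for *Dnmt1*, with the motif in capitals (as its reverse complement in *Dnmt1*). GENCODE places both inside an exon, in untranslated sequence of some transcripts. A match describes the letters only and does not show a bound site.
Uhrf1: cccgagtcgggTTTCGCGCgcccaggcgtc
Dnmt1: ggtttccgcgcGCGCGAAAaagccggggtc

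Genes that work with this machinery were examined as lists. Of 14 tested maintenance methylation partners and other methyltransferases, 1 had an unadjusted P below 0.05, beside 9.3% of all tested genes. It was *Dmap1*, whose protein binds DNMT1. It had 25.4, 27.8, 24.6 and 23.6 CPM in WT replicates 1 to 4 and 29.9, 26.8, 28.7 and 28.0 CPM in KO replicates 1 to 4. WT replicate 2 exceeded KO replicate 2, so the genotypes overlapped. The log2 fold change was 0.16, and edgeR gave an unadjusted P of 0.0495 (adjusted p = 0.538), which was below 0.05 in 3 of 16 alternatives. The median of this list was 0.012, and its count of unadjusted P below 0.05 was 0 to 2 with 1 library left out. *Pcna*, the replication clamp and the gene of this list with the highest RPKM, had a log2 fold change of −0.043, which was −0.0066 without the library labelled WT replicate 3 and −0.075 without WT replicate 4.

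Among 9 further methyl-CpG binding proteins, 0 passed an unadjusted P of 0.05 by edgeR, beside 9.3% of all tested genes, and their median log2 fold change was −0.048. Counts were also 0 of 12 for subunits of NuRD, 0 of 18 for base excision repair and TET partners, and 0 of 8 for methyl donor supply, with medians of −0.010, 0.017 and −0.0055. *Apex1*, an endonuclease of base excision repair, had a log2 fold change of 0.030, which turned to −0.0018 without KO replicates 1 and 4. It was 0.073 without the library labelled WT replicate 3 and 0.00065 without WT replicate 1. *Mat2a*, which makes the methyl donor, had −0.028, and −0.060 to −0.0081 with 1 library left out. Leaving out 1 library gave counts of unadjusted P below 0.05 of 0 to 1 for the binding proteins, NuRD and base excision repair, and 0 throughout for methyl donor supply. With each of these lists the edgeR count of adjusted p below 0.05 was also 0. TET enzymes need 2-oxoglutarate, and ascorbate promotes their activity. Of 15 tested genes of those supplies, 1 had an unadjusted P below 0.05, beside 9.3% of all tested genes, and 2 had no overlap between genotypes, beside 4.89% of all tested genes. The 2 were *Slc23a2* and *Sdha*, both with a lower mean in KO iT_regs_, while the median log2 fold change of the list was 0.030. With 1 library left out the count of unadjusted P below 0.05 was 0 to 2.

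*Slc23a2*, an ascorbate transporter, had 112, 112, 116 and 116 CPM in WT replicates 1 to 4 and 110.0, 108, 102 and 105 CPM in KO replicates 1 to 4. The genotypes did not overlap, with all KO libraries lower. Such a separation fixes the two-sided exact permutation p at 0.0286, the smallest that 4 against 4 libraries allow. That p therefore restates the lack of overlap and is no further support. The log2 fold change was −0.10, with an edgeR unadjusted P of 0.0319 and adjusted p of 0.478. That unadjusted P was below 0.05 in 10 of 16 alternatives. It was 0.0586 without the library labelled WT replicate 3, 0.0635 without WT replicate 4 and 0.0931 without KO replicate 3. Without KO replicate 4 it was 0.0692, without KO replicates 1 and 4 0.0565, and with the replicate block described below 0.0564. *Sdha*, a subunit of succinate dehydrogenase, had 354, 347, 344 and 348 CPM in WT replicates 1 to 4 and 344, 342, 321 and 329 CPM in KO replicates 1 to 4. In *Sdha* the genotypes did not overlap either, which again fixes the exact permutation p at 0.0286, but the margin was narrow. The library labelled WT replicate 3 had 344.4 CPM and KO replicate 1 had 343.8 CPM. The log2 fold change of *Sdha* was −0.061, with an edgeR unadjusted P of 0.121 and adjusted p of 0.701.

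A list of 6 genes with regions known to be demethylated in T_regs_, *Foxp3* among them, was also examined. Methylation was not measured in these cultures, so RNA levels of these genes do not show the state of those regions. Of the 6, 4 had an unadjusted P below 0.05, beside 9.3% of all tested genes, all with a lower mean in KO iT_regs_. The median log2 fold change was −0.13, and the count was 2 of 6 without KO replicate 1. *Foxp3*, the lineage factor, had 117, 122, 107 and 93.8 CPM in WT replicates 1 to 4 and 77.2, 105, 93.2 and 78.1 CPM in KO replicates 1 to 4. The genotypes overlapped, and the log2 fold change was −0.31 with an edgeR adjusted p of 0.152. Over 16 alternatives this adjusted p ranged from 0.0104 to 1.0 and was below 0.05 in 4. The 4 were voom (0.0416), the replicate block described below (0.0161), without WT replicate 4 (0.0337) and without KO replicate 2 (0.0104, log2 fold change −0.41). *Il2ra*, the interleukin-2 receptor alpha chain, had 2254, 2179, 2370 and 2271 CPM in WT replicates 1 to 4 and 2026, 2169, 2082 and 2025 CPM in KO replicates 1 to 4. All KO libraries were below all controls, and the log2 fold change was −0.13 (edgeR adjusted p = 0.152). With DESeq2 its adjusted p was 0.0496, the only 1 of 16 alternatives below 0.05 and the lowest of a range up to 1.0. *Ikzf2* and *Ikzf4*, transcription factors of T_regs_, had log2 fold changes of −0.14 and −0.12, with edgeR adjusted p-values of 0.433 and 0.418. These fold changes were −0.090 for *Ikzf2* without KO replicate 2 and −0.077 for *Ikzf4* without WT replicate 1. *Ctla4* had a log2 fold change of 0.062, and of 0.0035 without KO replicates 1 and 4. Without KO replicates 1 and 4 the log2 fold change of *Foxp3* was −0.15 and 1 of the 6 genes had an unadjusted P below 0.05. Whether the genes of this list differed more than the methylation genes was not tested.

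Because *Dnmt1* and *Uhrf1* are expressed with DNA replication, 20 genes of S phase and mitosis were examined beside them. By edgeR, 0 of 20 passed an unadjusted P of 0.05, beside 9.3% of all tested genes, and their median log2 fold change was −0.037. The count was 1 of 20 without WT replicate 1, without WT replicate 2, without KO replicate 2 and without KO replicates 1 and 4. *Mki67* had 1532, 1504, 1583 and 1475 CPM in WT replicates 1 to 4 and 1374, 1554, 1490 and 1503 CPM in KO replicates 1 to 4, which overlap.

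Markers of T cells were abundant. *Cd4* averaged 138 RPKM and *Lck* 171 RPKM over the 8 libraries. Summed counts of 2 CD8 genes were 145, 111, 311 and 109 in WT replicates 1 to 4 and 92, 114, 90 and 123 in KO replicates 1 to 4, and the excess in the library labelled WT replicate 3 came mostly from *Cd8a*. By edgeR, 3 of 5 T_reg_ markers had an unadjusted P below 0.05, *Foxp3*, *Il2ra* and *Ikzf2* of the list above, as had 2 of 2 CD8 markers and 1 of 6 CD4 T cell markers, beside 9.3% of all tested genes. The CD8 and CD4 markers were *Cd8a*, *Cd8b1* and the T cell costimulatory receptor *Cd28* (P of 0.00504, 0.0391 and 0.0353), named with their values already seen. Their log2 fold changes were −2.15, −0.36 and −0.10, with adjusted p-values of 0.233, 0.499 and 0.494, and the genotypes overlapped in all 3. Without the library labelled WT replicate 3 these log2 fold changes were −0.43, −0.22 and −0.071, and the unadjusted P was 0.329, 0.198 and 0.123. Of the B cell markers 3 of 5 were listed, of the myeloid markers 2 of 5 and of the NK cell markers 1 of 3, and they summed to at most 53, 31 and 45 counts in a library. Too low to be tested, 2 of them are named with their values already seen. *Pax5*, of B cells, had 23 counts in the library labelled WT replicate 3 and at most 6 in any other, but *Cd79b* had 22 there and 12 to 27 elsewhere. *Lyz2*, of myeloid cells, had 9 counts in KO replicate 1, 18 in KO replicate 4 and 0 in the other libraries. *Cd68*, also of myeloid cells, had 6 and 13 in those 2 libraries and 6 to 16 in the others. In addition, 0 of 4 red cell markers were listed. The part of these marker signals in the results above was not tested. Without the library labelled WT replicate 3, 0 of the 8 methylation genes had an edgeR adjusted p below 0.05 and 1, *Tet3*, had an unadjusted P below 0.05.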

How the data were processed

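The deposited values are estimated counts per gene. Per the study's methods and the submitters' notes, the authors aligned reads to GRCm39 with STAR 2.7.8a and counted with Partek's expectation-maximization method, in which a read matching more than 1 gene is split, then filtered the counts. Annotation version and strandedness are not given in the sources used here. Methods state fewer replicates than the 4 per genotype in the labels, and all 8 libraries were used. Counts were rounded, filtered with filterByExpr (minimum count 10), TMM-normalized and tested with edgeR 4.0.16 in R 4.3.3 (quasi-likelihood, two-sided, genotype only), with Benjamini-Hochberg adjustment over 11317 genes. Permutation tests used log2 of CPM plus 0.5 over 70 arrangements. CPM of 0.188 to 0.225 equal 3 counts, which covers counting error only. RPKM used merged exon lengths from GENCODE. Named genes are all members, and companion genes with an unadjusted P below 0.05 or no overlap, plus up to 3 of the highest RPKM per list, and the 3 genes of highest r per member. Markers are named after their values were seen. Members and lists were chosen with earlier results of these data known. Alternatives were other filters, scalings, DESeq2 1.42.0, limma 3.58.1 voom, a replicate block and each library left out. A further setting, without KO replicates 1 and 4, was added after seeing the data, prompted by earlier text on these data that set the pair apart. The test was tried on simulated counts.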

Additional observations from a re-analysis of the deposited data

Results flagged for a closer look

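In 4 of 48 groups of 4 libraries screened, over 24 genes, 1 library lay far from the other 3 by Dixon's ratio, and chance flags about 1 in 20 groups. *Uhrf1* reached 494 CPM in KO replicate 3, above the other KO libraries. *Tet1* reached 16.3 CPM in KO replicate 2, and *Ikzf4*, a transcription factor of T_regs_, reached 233 CPM in KO replicate 3. *Cd8a* reached 11.3 CPM in the library labelled WT replicate 3.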

How the results depend on the processing

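Over 16 settings, 15 planned and 1 added after seeing the data, 0 of the 8 methylation genes had an adjusted p below 0.05, and *Tet1*, *Tet2*, *Tet3* and *Mbd2* had a lower mean in KO iT_regs_ in all 16. Leaving out 1 library at a time gave log2 fold changes from −0.022 to 0.0029 for *Dnmt1*, −0.050 to −0.00043 for *Uhrf1*, −0.10 to 0.0066 for *Dnmt3a* and −0.14 to 0.013 for *Dnmt3b*. Without KO replicates 1 and 4 *Dnmt1*, *Uhrf1*, *Dnmt3a* and *Dnmt3b* had 0.0092, 0.018, 0.019 and 0.10, and *Apex1* turned from 0.030 to −0.0018. The number of the 8 genes with an unadjusted P below 0.05 was 3 with voom and quality weights and 1 to 2 with 1 library left out. Among all tested genes, those with an adjusted p below 0.05 numbered 30, but 81 with DESeq2, 95 with voom, 6 to 162 with 1 library left out and 3 without KO replicates 1 and 4. Those with an unadjusted P below 0.05 numbered 1052, but 697 to 1230 with 1 library left out and 450 without that pair. The cause of these shifts was not tested. With the replicate block, 87 genes had an adjusted p below 0.05 and 1 of the 8 methylation genes an unadjusted P below 0.05, and *Foxp3* had a log2 fold change of −0.32 with an adjusted p of 0.0161, of a range from 0.0104 to 1.0 over the settings. With that block the unadjusted P of *Slc23a2* was 0.0564, and 1 of 20 genes of S phase and mitosis had an unadjusted P below 0.05. *Cd8a* failed the filter of 10 counts in every library, and DESeq2 gave it no P. Same-numbered libraries did not deviate together (correlations of −0.0521, 0.00498, −0.0516 and 0.0639). With 4 libraries per genotype, these values cannot decide whether the samples were paired.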
